A study of Mus musculus with 6 samples.

Results

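Tumor macrophage and phagocyte genes were followed in whole mammary tumors after treatment with TKI258, with water as the control. The set holds 41 genes of engulfment, lysosomes, scavenging, pattern recognition, Fc receptor signaling, activation and myeloid transcription, chosen by name, out of 19937 genes with a probe set of their own on the array. Each of the 41 had exactly 1 such probe set; the listed name Chi3l3 corresponds to the current symbol Chil3. The tumors grew from 4T1 cells, a mouse mammary carcinoma line, of which 750000 were injected into a mammary gland of Balb/C mice. From day 7 the mice received TKI258 (dovitinib, an inhibitor of receptor tyrosine kinases that include CSF1R, the receptor for the macrophage growth factor CSF1) at 40 mg/kg by mouth, or water, every day for 14 days. RNA from 3 individual tumors of TKI258-treated mice and 3 of water-treated mice was hybridized to Affymetrix arrays, 1 tumor per array, and the deposited values are log2 signals, so that a difference of 1 is a doubling. The model is a transplanted line in which tumor cells, stroma and host leukocytes are measured together.

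Macrophages enter tumors as blood monocytes or stem from tissue-resident cells, and depend on the transcription factor PU.1 (encoded by Spi1) and on signals of CSF1R. They recognize dying cells through phosphatidylserine, digest them in lysosomes, and sense microbial and damage patterns with surface and endosomal receptors. Many of these receptors have no signaling domain of their own and use the adaptors FcRγ (Fcer1g) or DAP12 (Tyrobp), whose tyrosine motifs (ITAMs) recruit kinases. Several of the genes are shared with neutrophils, dendritic cells or B cells.

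In these tumors, 37 of the 41 genes had signals above the array median of all probe sets on all 6 arrays. Among them were Cd68, Lyz2, Aif1, Tyrobp and Spi1. A filter on low signal was passed by 38 of the 41, beside 10977 of all 19937 genes. Chil3, Marco and Timd4 did not pass it and had group means below every array median in both groups. A signal above the median does not show which cells made it. Marker lists of other cell types set single tumors apart. B cell markers averaged 8.95 in TKI258 replicate 3 and 6.89 in water replicate 1, against 4.97 and 5.04 in the other TKI258 tumors and 4.79 and 4.99 in the other water tumors. Keratinocyte markers averaged 5.11 to 5.55 in TKI258 tumors and 5.30 in water replicate 1, against 7.45 and 7.21 in water replicates 2 and 3. T and NK cell markers were high in the same tumors as B cell markers. They averaged 7.58 in TKI258 replicate 3 and 6.44 in water replicate 1, against 5.43 to 5.72 in the other tumors. Dendritic cell markers were also highest in these tumors, at 6.47 and 6.15. The tumors with high B cell markers named below thus share these patterns. Other lists differed between the groups. Fibroblast markers averaged 10.19, 9.98 and 10.29 in TKI258 tumors and 9.77, 9.67 and 9.86 in water tumors, with 7 of 8 higher in TKI258 tumors. Adipocyte markers averaged 6.77, 7.39 and 8.10 in TKI258 tumors and 6.69, 5.81 and 6.30 in water tumors, with 8 of 9 higher. Neutrophil markers averaged 6.61, 6.42 and 6.16 in TKI258 tumors and 6.78, 7.03 and 7.17 in water tumors, with 10 of 12 lower. Endothelial markers averaged 7.41, 7.40 and 7.79 in TKI258 tumors and 7.90, 8.03 and 7.60 in water tumors, with 8 of 9 lower. The endothelial means overlapped through TKI258 replicate 3 and water replicate 3. None of these markers passed limma's adjusted test. At an unadjusted limma p under 0.05, 3 fibroblast and 6 adipocyte markers were higher. Lower at that threshold were 3 endothelial, 4 neutrophil and 7 keratinocyte markers. Over all genes 3.35% were lower and 3.79% higher at it. The neutrophil markers (Ngp and Ly6g) and keratinocyte markers (Dsg3 and Sprr1b) with the smallest limma p did not pass the low-signal filter. Of the adipocyte markers with the smallest limma p, Lep did not pass it and Cidec did. The part of these cell types in the member signals was not tested. In bulk RNA, fewer cells of a type and less RNA per cell cannot be told apart.

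As a list, the genes had slightly lower signals in TKI258 tumors, and 1 water tumor supplied much of this shift. The mean log2 signal over the 41 genes was 8.72, 8.70 and 8.80 in TKI258 replicates 1 to 3, and 8.78, 9.10 and 8.80 in water replicates 1 to 3. Water replicate 2 stood above the other 5 tumors, while water replicate 1 lay between TKI258 replicates 1 and 3. The group means were 8.74 ± 0.05 in TKI258 tumors and 8.89 ± 0.18 in water tumors (SD, n = 3 each), so the difference was smaller than the spread between water tumors. The TKI258 mean was the lower one for 33 of the 41 genes, against 43.4% of all 19937 genes, and the median log2 difference (TKI258 minus water) was -0.16 for the members and 0.02 for all genes. Among the 10977 genes that passed the filter on low signal, 59.5% had a lower TKI258 mean, with a median difference of -0.03, beside 32 of the 38 members that passed it.

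No member passed limma's test with Benjamini-Hochberg adjustment over all 34760 probe sets, and 0 probe sets passed anywhere on the array (percent called 0.0%), while 2803 had an unadjusted limma p under 0.05. At an unadjusted limma p under 0.05 there were 3 members, all lower in TKI258 tumors (Tlr7, Gpnmb and Ms4a7), against 3.35% of all genes lower and 3.79% higher. Adjusted p-values of the members ran from 0.569 to 0.999. In 4 members (Tlr7, Ms4a7, Fcgr2b and Fcgr3) every TKI258 tumor lay below every water tumor, where 6.49% of all genes and 10.2% of those past the low-signal filter did so. In 1 member (Tlr2) every TKI258 tumor lay above every water tumor, where 8.66% of all genes did so. Counts this small stand too near these shares to be read as a result about the members. An exact 2-sided permutation test over tumors gave p = 0.1 for these 5 genes, the smallest p that 3 against 3 tumors allow. Genes without overlap always get this p, so the test adds nothing to their separation. The differences below are therefore values without a call.

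**Figure D1:**
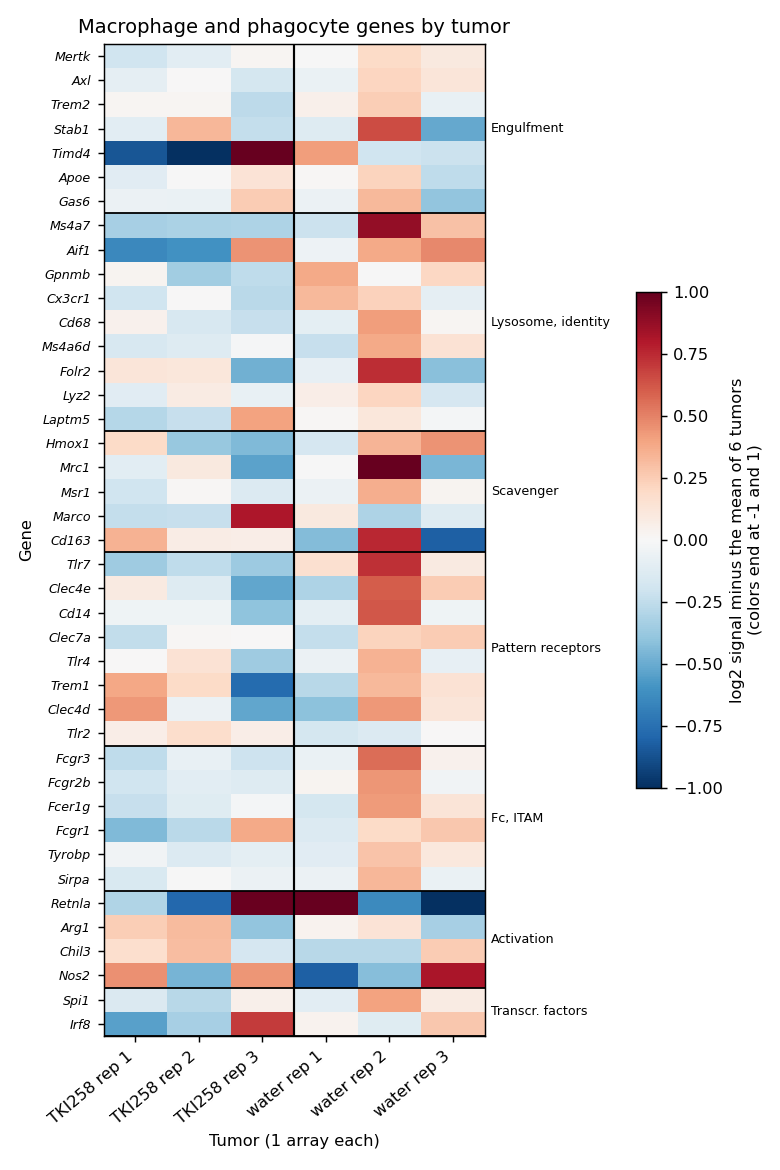
Log2 signal of the 41 genes (rows, by role) in each tumor (columns, TKI258 left of water), minus the gene's mean over the 6 tumors; red is above and blue below that mean. Water replicate 2 is the reddest column and holds the highest value of 24 genes, while TKI258 replicate 3 holds the highest value of Fcgr1, Marco, Irf8, Laptm5 and Timd4.

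The 3 lower genes without overlap for which a promoter window was matched are shown by the 250 bases before their RefSeq start (GRCm38.p6, sequences from RefSeq, printed on the strand of the gene). Of the 2 starts listed for Ms4a7 and for Fcgr3, the one given first in the table was taken; Fcgr2b has 1. Capitals mark GGAA or its complement TTCC, the core bound by ETS factors such as PU.1, whose gene Spi1 is a member; overlapping matches were counted on both strands.
Ms4a7, chr19:11336147-11336396, minus strand: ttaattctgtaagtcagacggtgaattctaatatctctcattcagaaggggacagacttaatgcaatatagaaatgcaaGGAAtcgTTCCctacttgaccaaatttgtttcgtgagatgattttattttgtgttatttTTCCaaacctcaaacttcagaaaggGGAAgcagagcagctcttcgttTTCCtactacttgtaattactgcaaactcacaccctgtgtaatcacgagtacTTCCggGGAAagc
Fcgr2b, chr1:170976072-170976321, minus strand: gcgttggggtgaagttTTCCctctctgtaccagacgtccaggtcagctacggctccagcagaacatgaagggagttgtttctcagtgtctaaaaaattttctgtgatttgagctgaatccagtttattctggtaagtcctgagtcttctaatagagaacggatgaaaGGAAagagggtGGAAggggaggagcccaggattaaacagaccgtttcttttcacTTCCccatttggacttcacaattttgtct
Fcgr3, chr1:171059404-171059653, minus strand: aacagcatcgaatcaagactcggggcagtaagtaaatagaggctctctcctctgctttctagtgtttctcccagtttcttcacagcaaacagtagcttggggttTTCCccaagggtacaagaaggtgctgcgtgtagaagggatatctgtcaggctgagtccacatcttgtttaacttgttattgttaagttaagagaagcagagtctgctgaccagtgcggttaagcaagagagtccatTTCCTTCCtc
The core occurred 7 times in the Ms4a7 window, 4 times in the Fcgr2b window and 3 times in the Fcgr3 window, and 93.4% of all 32851 promoter windows held it at least once. The longer form GAGGAA, searched on both strands and containing the core, was present once in the Fcgr3 window and absent from those of Ms4a7 and Fcgr2b. Over the 30 members matched in the table, 19 of 37 windows (51.4%) held GAGGAA, against 23.3% of all windows; some genes have several starts whose windows overlap. A match describes the letters and is not a measured site.

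Receptors and ligands of dead-cell engulfment differed little. Mertk, a receptor tyrosine kinase of the TAM family that binds phosphatidylserine through bridging proteins, had 7.40, 7.50 and 7.62 in TKI258 tumors and 7.60, 7.79 and 7.70 in water tumors (log2 signal, replicates 1 to 3). Only TKI258 replicate 3 reached into the water range, and the log2 difference was -0.19 ± 0.10 (moderated SE). Axl, a second TAM receptor, had 10.51, 10.60 and 10.42 in TKI258 tumors and 10.53, 10.81 and 10.72 in water tumors, a difference of -0.18 ± 0.11. Water replicate 1 lay within the TKI258 range of Axl. Gas6, the ligand that bridges both receptors to dying cells, had 8.48, 8.47 and 8.79 in TKI258 tumors and 8.48, 8.86 and 8.14 in water tumors. Its TKI258 values lay inside the water range and its difference, 0.08 ± 0.20, turned to -0.02 without TKI258 replicate 3 and to -0.09 without water replicate 3.

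Timd4 encodes TIM-4, a phosphatidylserine receptor of resident macrophages, and varied more between tumors than any other member, with a range of 3.17 log2 units. Its signal was 5.47, 5.16 and 8.33 in TKI258 tumors and 6.74, 6.12 and 6.11 in water tumors. The high TKI258 tumor and the highest water tumor were those with high B cell markers, and the difference was 0.00 ± 0.80 with all tumors and -1.01 without TKI258 replicate 3; its sign also turned with quantile normalization (0.01). These tumors also had the highest T and NK cell and dendritic cell marker means, and the part of any of these cells in the Timd4 signal was not tested. Trem2, a lipid-sensing receptor that signals through DAP12, differed by -0.15 ± 0.13, and the clearance receptor gene Stab1 (-0.01 ± 0.30) and the lipid carrier gene Apoe (0.01 ± 0.14) lay at 0 within their errors. The sign of Stab1 turned with quantile normalization (0.03) and that of Apoe with median centring (-0.01). Of the 7 engulfment genes, 5 had lower TKI258 means, counting Timd4 and Stab1, and the median difference was -0.01. Water replicate 2 was the highest tumor for 6 of the 7.

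Other genes of engulfment did not share the direction of the members. Of 22 measured genes (bridging proteins, integrins, cytoskeletal and lipid export genes), 9 had lower and 13 higher TKI258 means, with a median difference of 0.05, and 0 passed limma's adjusted test (1 lower and 2 higher at an unadjusted limma p under 0.05). Cd36, a scavenger and fatty acid receptor also made by adipocytes and endothelium, had 8.57, 9.26 and 10.37 in TKI258 tumors and 8.49, 7.97 and 8.36 in water tumors (1.13 ± 0.43). All TKI258 values lay above the water values, and the adipocyte marker mean ran in the same order within TKI258 tumors, at 6.77, 7.39 and 8.10, against 6.69, 5.81 and 6.30 in water tumors; the part of adipocytes in the Cd36 signal was not tested. The integrin gene Itgb3 differed by -0.35 ± 0.14, the engulfment receptor gene Megf10 by 0.51 ± 0.21 and the endocytic receptor gene Lrp1 by 0.24 ± 0.14. Megf10, 1 of the 2 higher genes at an unadjusted limma p under 0.05, did not pass the low-signal filter.

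All 9 lysosomal and identity genes had lower TKI258 means, with a median difference of -0.23. Ms4a7, a tetraspan membrane protein of macrophages, had 6.57, 6.58 and 6.59 in TKI258 tumors and 6.68, 7.78 and 7.19 in water tumors. The TKI258 tumors were nearly identical, and the lowest water tumor lay close above them. The difference of -0.64 ± 0.26, a 1.55-fold lower level (limma adjusted p = 0.615), was -0.36 without water replicate 2. Gpnmb, a glycoprotein of lysosomes in lipid-laden macrophages, had 7.12, 6.75 and 6.84 in TKI258 tumors and 7.47, 7.09 and 7.30 in water tumors (-0.38 ± 0.14, limma adjusted p = 0.604). TKI258 replicate 1 lay just above water replicate 2, and leaving out that water tumor widened the difference to -0.48. Gpnmb and the fractalkine receptor gene Cx3cr1 were thus not highest in water replicate 2 but in water replicate 1.

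Cx3cr1 had 7.99, 8.19 and 7.92 in TKI258 tumors and 8.51, 8.42 and 8.10 in water tumors, a difference of -0.31 ± 0.14. Its groups overlapped through TKI258 replicate 2 and water replicate 3. Aif1, the actin-binding protein IBA1, had 6.98, 7.02 and 8.07 in TKI258 tumors and 7.57, 8.0 and 8.10 in water tumors. TKI258 replicate 3 stood with the water tumors, and the difference was -0.53 ± 0.31 with it and -0.89 without it. Cd68, a lysosomal glycoprotein used as the common macrophage marker, had 10.77, 10.57 and 10.50 in TKI258 tumors and 10.63, 11.15 and 10.75 in water tumors. Water replicate 2 alone lay above the TKI258 range, and the Cd68 difference was -0.23 ± 0.16 with it and -0.08 without it. Ms4a6d (-0.19 ± 0.16), the folate receptor gene Folr2 (-0.16 ± 0.32), the lysozyme gene Lyz2 (-0.07 ± 0.12) and the lysosomal membrane gene Laptm5 (-0.07 ± 0.19) differed less.

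**Figure D2:**
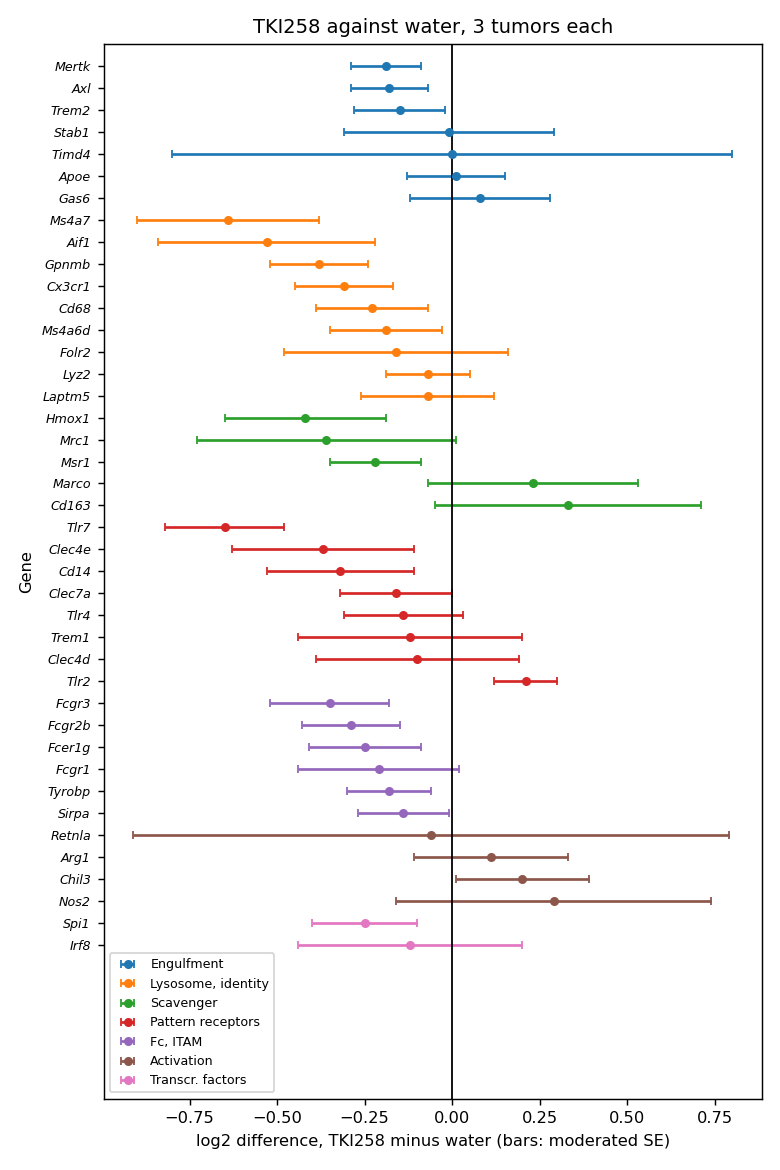
Log2 difference (TKI258 minus water, horizontal axis) of each of the 41 genes with its moderated SE, n = 3 tumors per group, colored by role. The points lie mostly left of 0, with Tlr7 (-0.65) and Ms4a7 (-0.64) farthest, while Cd163, Nos2, Marco, Tlr2 and Chil3 lie to the right by 0.20 or more.

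Of the 5 scavenger and heme genes, 3 had lower TKI258 means. Mrc1, the mannose receptor, had 10.50, 10.70 and 10.07 in TKI258 tumors and 10.60, 11.61 and 10.15 in water tumors. Water replicate 2 was far above all others, and the difference of -0.36 ± 0.37 became 0.05 without it. Cd163, which takes up hemoglobin with haptoglobin, had 10.19, 9.92 and 9.91 in TKI258 tumors and 9.41, 10.60 and 9.03 in water tumors, values picked out after they were seen. Here both other water tumors lay below the TKI258 range, so the difference of 0.33 ± 0.38 was 0.79 without water replicate 2 and 0.00 without water replicate 3. The modified-lipoprotein receptor gene Msr1 had 10.12, 10.33 and 10.18 in TKI258 tumors and 10.26, 10.68 and 10.35 in water tumors (-0.22 ± 0.13). Its groups overlapped through water replicate 1. Hmox1, the heme-degrading enzyme, had 10.73, 10.16 and 10.10 in TKI258 tumors and 10.37, 10.88 and 10.99 in water tumors, a difference of -0.42 ± 0.23. TKI258 replicate 1 stood within the water range of Hmox1, and without it the difference was -0.62. Marco, a scavenger receptor of marginal zone macrophages, was at low signal except in TKI258 replicate 3 (6.48), the tumor with the highest B cell markers.

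Among receptors of microbial and damage patterns, Tlr7 had the smallest limma p of all 41 genes. Tlr7, an endosomal receptor of single-stranded RNA, had 6.69, 6.79 and 6.68 in TKI258 tumors and 7.20, 7.77 and 7.13 in water tumors. The TKI258 tumors lay close together and below all water tumors. The log2 difference was -0.65 ± 0.17, a 1.57-fold lower level, with an unadjusted limma p of 0.00819 and a limma adjusted p of 0.569. It ranged from -0.77 to -0.45 as each tumor was left out, the smallest size being the one without water replicate 2. Tlr2, a receptor of bacterial lipoproteins, went the other way, with 8.34, 8.45 and 8.34 in TKI258 tumors and 8.10, 8.14 and 8.28 in water tumors. Its difference was small, 0.21 ± 0.09, and stayed between 0.17 and 0.26 as each tumor was left out.

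The other pattern receptors overlapped between groups. Clec4e (Mincle, a glycolipid receptor) differed by -0.37 ± 0.26, Cd14 (the lipopolysaccharide co-receptor) by -0.32 ± 0.21, Clec7a (dectin-1) by -0.16 ± 0.16 and Tlr4 (the lipopolysaccharide receptor) by -0.14 ± 0.17. Trem1, an amplifier of inflammatory signals, and Clec4d, the partner of Mincle, differed by -0.12 ± 0.32 and -0.10 ± 0.29. Both were lowest in TKI258 replicate 3, and without that tumor they turned to 0.23 and 0.14; with array weights they turned to 0.17 and 0.19. Trem1, Clec4d and Clec4e are also expressed by neutrophils, and 10 of 12 neutrophil markers had lower TKI258 means, with a mean signal of 6.61, 6.42 and 6.16 in TKI258 tumors and 6.78, 7.03 and 7.17 in water tumors. Their part in these receptors was not tested.

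All 6 genes of the Fc receptor and ITAM group had lower TKI258 means, with a median difference of -0.23 and the narrowest spread of any role with more than 2 genes (-0.35 to -0.14). Fcgr2b, the inhibitory IgG receptor, had 10.21, 10.31 and 10.28 in TKI258 tumors and 10.44, 10.85 and 10.38 in water tumors (-0.29 ± 0.14). Fcgr3, an activating IgG receptor, had 7.97, 8.15 and 8.02 in TKI258 tumors and 8.16, 8.78 and 8.27 in water tumors (-0.35 ± 0.17). In both genes the groups were separate by narrow gaps, and in both the difference without water replicate 2 was closer to 0, at -0.14 and -0.16. The receptors are close relatives, and whether their probes tell them apart was not tested.

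The adaptor genes Fcer1g and Tyrobp had smaller differences than Fcgr2b and Fcgr3, with water replicates 2 and 3 highest. Fcer1g had 10.14, 10.25 and 10.35 in TKI258 tumors and 10.20, 10.80 and 10.50 in water tumors (-0.25 ± 0.16). Tyrobp had 9.09, 8.99 and 9.03 in TKI258 tumors and 9.01, 9.41 and 9.23 in water tumors (-0.18 ± 0.12). For each adaptor, water replicate 1 lay within the TKI258 range and water replicates 2 and 3 above it. The high-affinity IgG receptor gene Fcgr1 differed by -0.21 ± 0.23 and was highest in TKI258 replicate 3, and Sirpa, the receptor of the CD47 signal that restrains engulfment, differed by -0.14 ± 0.13. Fcgr2b, Fcgr3 and Fcer1g lie near each other on chromosome 1, with 1 protein-coding gene between the first pair and 7 between Fcgr3 and Fcer1g. Clec4e and Clec4d are direct neighbors on chromosome 6, yet differed by -0.37 and -0.10.

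Other genes of ITAM signaling had a similar balance. Of 19 measured kinases, phosphatases, adaptors and paired receptors, 16 had lower TKI258 means, with a median difference of -0.13, and 0 passed limma's adjusted test (1 lower and 1 higher at an unadjusted limma p under 0.05). Trem3, Cd300lb and the inhibitory receptor gene Lilrb4a differed by -0.37 ± 0.14, -0.36 ± 0.17 and -0.36 ± 0.17. Trem3, the 1 lower gene at that unadjusted p, was at low signal and did not pass the low-signal filter. Plcg2, a phospholipase downstream of the kinase SYK and 1 of the 3 with a higher TKI258 mean, had 9.46, 9.64 and 9.18 in TKI258 tumors and 9.02, 9.11 and 8.81 in water tumors (0.44 ± 0.15), all TKI258 tumors above all water tumors. Of 21 other macrophage and monocyte genes, 17 had lower TKI258 means, with a median difference of -0.20 and 0 passing limma's adjusted test (1 at an unadjusted limma p under 0.05). These were led by the integrin gene Itgax (-0.85 ± 0.31), the transcription factor gene Maf (-0.42 ± 0.20), the complement gene C1qb (-0.26 ± 0.14) and Mpeg1 (-0.44 ± 0.25), which encodes a pore-forming protein of phagocytes. The mean of this list was as high in TKI258 replicate 3 (9.73) as in water replicate 2 (9.73), while TKI258 replicates 1 and 2 had 9.19 and 9.31 and water replicates 1 and 3 had 9.47 and 9.56.

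Markers of activation state had no shared direction. Arg1 and Nos2 encode arginase and inducible nitric oxide synthase, which use the same amino acid in alternatively and classically activated macrophages. Arg1 had 11.75, 11.82 and 11.11 in TKI258 tumors and 11.54, 11.64 and 11.17 in water tumors, a difference of 0.11 ± 0.22. TKI258 replicate 3 and water replicate 3 were the lowest tumors, and the groups overlapped. Nos2 had 8.21, 7.29 and 8.20 in TKI258 tumors and 6.94, 7.33 and 8.57 in water tumors (0.29 ± 0.45). Its spread within each group was larger than the difference, and without water replicate 1 the difference was -0.05.

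Chil3 (Ym1) and Retnla (FIZZ1) are markers of alternative activation in mice. Chil3 was at low signal in all tumors, 4.58, 4.72 and 4.24 in TKI258 tumors and 4.13, 4.13 and 4.66 in water tumors (0.20 ± 0.19). Retnla had 6.41, 5.92 and 7.70 in TKI258 tumors and 8.64, 6.07 and 5.51 in water tumors. The highest tumor of each group was again the one with high B cell markers, which in the water group also had the highest adipocyte mean (6.69 in water replicate 1) and in the TKI258 group likewise (8.10 in TKI258 replicate 3). The Retnla difference of -0.06 ± 0.85 moved to 0.89 without water replicate 1 and to -0.57 without TKI258 replicate 3; the part of adjacent tissue was not tested.

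The transcription factor genes differed by less than the spread between tumors. Spi1 had 8.18, 8.05 and 8.38 in TKI258 tumors and 8.22, 8.73 and 8.41 in water tumors (-0.25 ± 0.16), with TKI258 replicate 3 inside the water range. Irf8, a factor of monocytes, dendritic cells and B cells, differed by -0.12 ± 0.32 and was highest in TKI258 replicate 3 (9.18), with 7.94 and 8.15 in the other TKI258 tumors and 8.52, 8.36 and 8.75 in water tumors. Without TKI258 replicate 3 the Irf8 difference was -0.50, and without TKI258 replicate 1 it was 0.12.

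**Figure D3:**
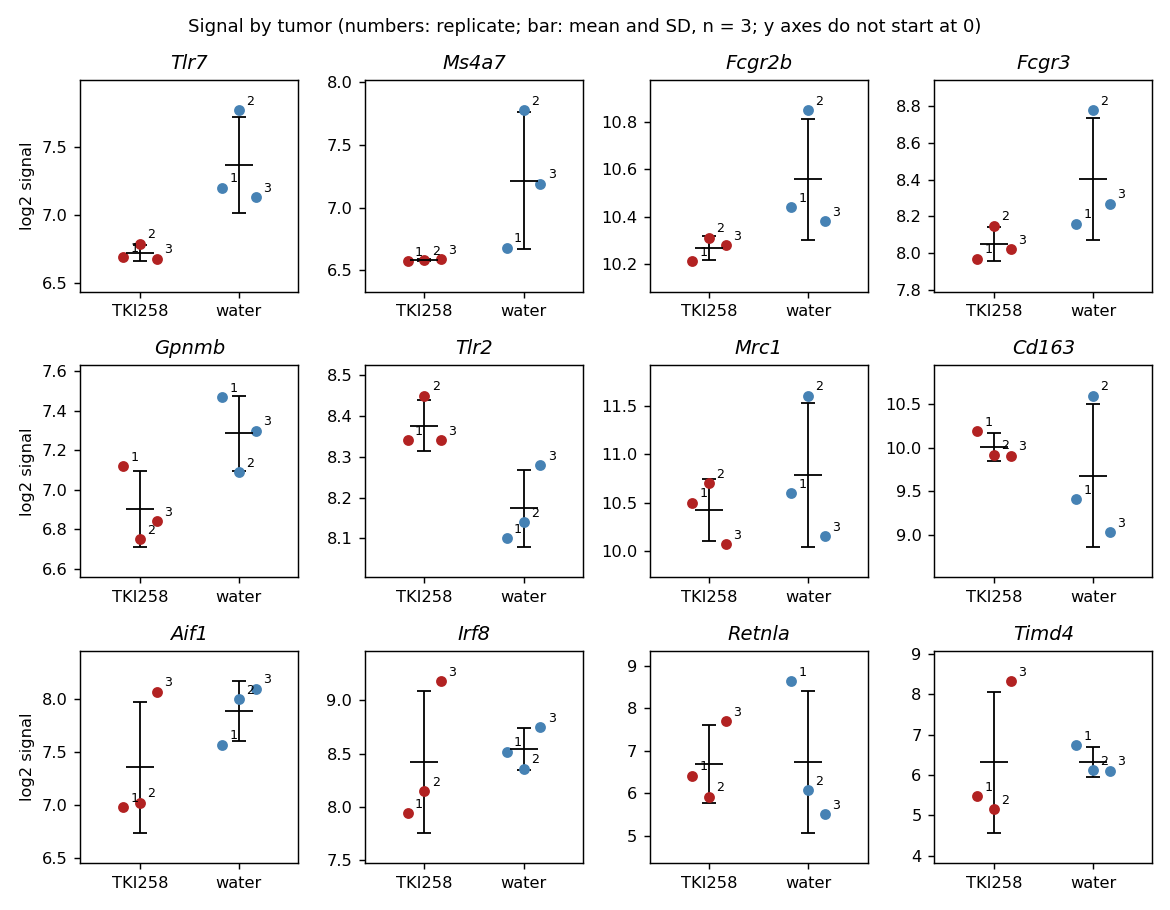
Log2 signal (vertical axes, not starting at 0) of 12 members in each tumor, TKI258 left in red and water right in blue, with the replicate number beside each point and the mean and SD (n = 3) in black. Tlr7, Ms4a7, Fcgr2b and Fcgr3 are lower in all TKI258 tumors and Tlr2 is higher; water replicate 2 is the top point for Mrc1 (11.61) and Cd163 (10.60), and TKI258 replicate 3 for Aif1 within its group (8.07), Irf8 (9.18) and Timd4 (8.33).

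Single tumors contributed unequally to the lower TKI258 means. Water replicate 2 held the highest of the 6 values in 24 of the 41 genes, against 18.2% of all genes, and lay above all TKI258 tumors in 27 members, against 24.4% of all genes. It was also the lowest tumor for 29.3% of all genes. Its array had the widest quartiles, 4.72 and 8.35, and that of TKI258 replicate 3 the narrowest, 4.82 and 8.26. Most members have signals above the median, and the shares in this paragraph were not computed for genes past the low-signal filter. Array weights in limma were lowest for TKI258 replicate 3 (0.442) and water replicate 2 (0.578), against 1.13 to 1.78 in the other tumors. With these weights the median difference of the members was -0.13. Water replicate 3 lay above all TKI258 tumors in 17 members, against 23.4% of all genes, and water replicate 1 in 8, against 19.2% of all genes. Of the 33 members with a lower TKI258 mean, water replicate 2 was the highest water tumor in 24. These 33 have high water values by selection, and the matching share over all genes with a lower TKI258 mean was not computed. Genes of engulfment (6 of 7) and of the Fc and ITAM group (5 of 6) were most often highest in water replicate 2. Activation markers (0 of 4) never were. TKI258 replicate 1 was the lowest of the 6 tumors for 12 of the 41 members, against 8.30% of all genes. TKI258 replicate 2 was lowest for 4, against 11.4% of all genes, and TKI258 replicate 3 for 14, against 28.2% of all genes. Mast cell markers were also highest in water replicate 2, at 7.37, against 6.15 to 6.47 in TKI258 tumors and 6.24 and 6.71 in the other water tumors, and keratinocyte markers at 7.45; their part in the member signals was not tested.

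Without water replicate 2, the median difference of the members was -0.08 and 27 had a lower TKI258 mean, beside 45.6% of all genes. Without water replicate 1 the median difference was -0.26, with 32 members lower, beside 43.3% of all genes. In that setting 14 members lay wholly below (11.1% of all genes) and 9 had an unadjusted limma p under 0.05 (6.95% of all genes). Leaving out TKI258 replicate 3 gave 11 members wholly below (10.6% of all genes), and TKI258 replicate 1 or 2 gave 7 each (11.3% and 10.8%), against 4 with all tumors; 2 against 3 tumors separate more easily. A further setting, chosen after the data were seen, left out water replicate 1 and TKI258 replicate 3, the tumors with high B cell markers. The median difference was then -0.28, with 34 members lower and 19 wholly below (16.1% of all genes). This pair holds the TKI258 tumor with the highest member mean (8.80) and the water tumor with the lowest (8.78). Leaving it out widens the gap between the group means by construction, so this setting cannot test the shift. In none of these settings did a member pass limma's adjusted test, and the smallest adjusted limma p of a member was 0.261. The shares beside these counts cover all genes, not only those past the low-signal filter.

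**Figure D4:**
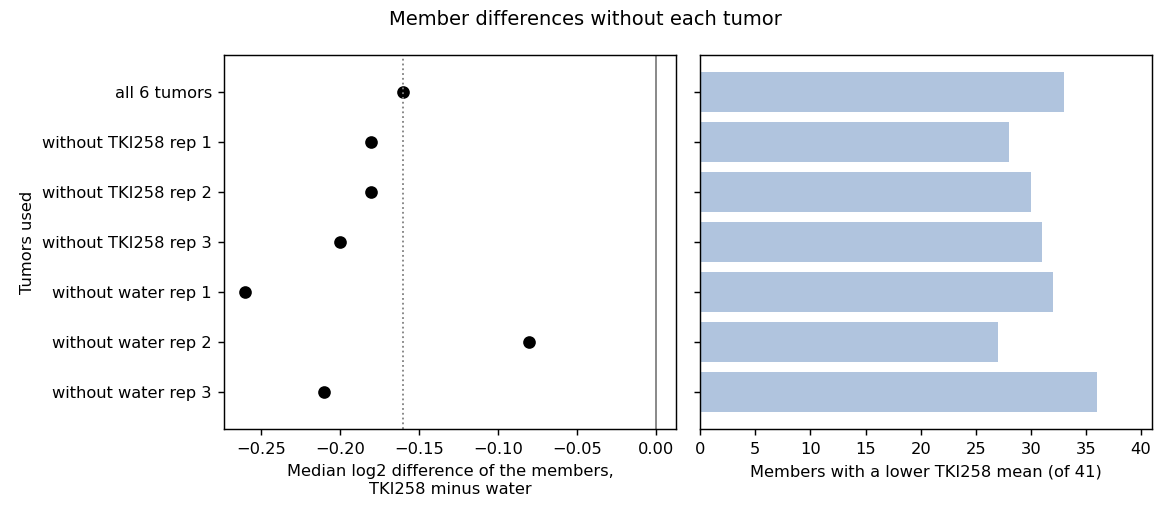
Left, the median log2 difference of the 41 members (TKI258 minus water) with all 6 tumors and without each tumor in turn; right, the number of members with a lower TKI258 mean in the same settings (bars from 0). The median stays below 0 throughout, at -0.08 without water replicate 2 and -0.26 without water replicate 1, and the count runs from 27 to 36.

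**Figure D5:**
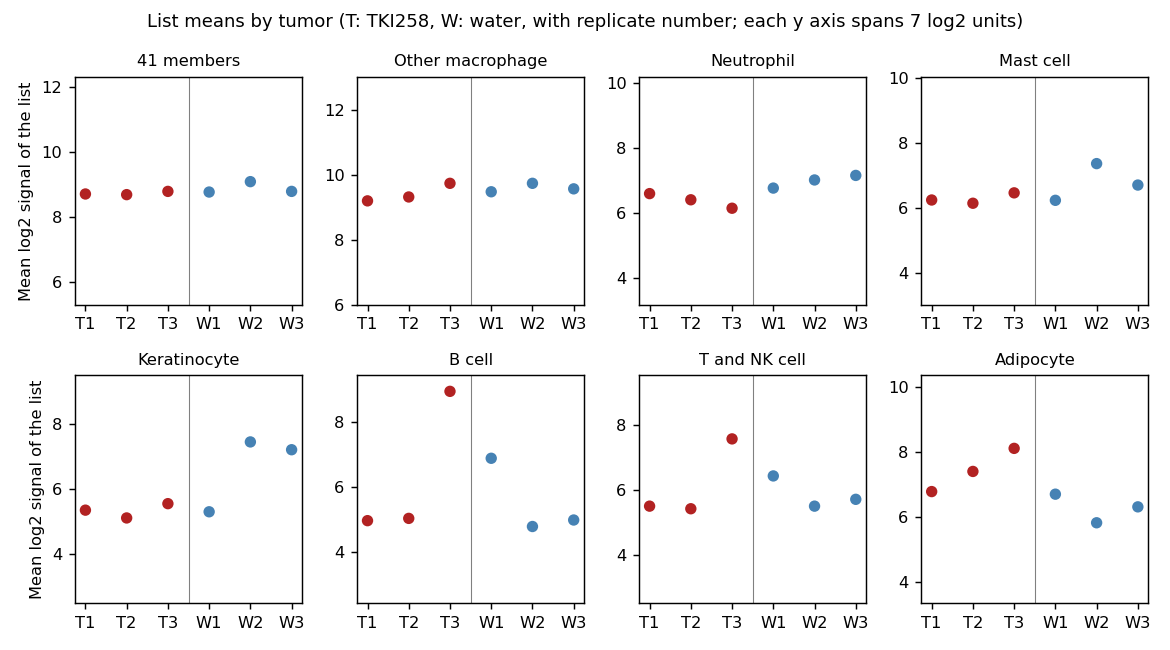
Mean log2 signal of the members and of markers of other cell types in each tumor (T, TKI258, left in red; W, water, right in blue; each vertical axis spans the same number of log2 units). The members move within 8.70 to 9.10, while B cell markers peak in TKI258 replicate 3 (8.95) and water replicate 1 (6.89) and keratinocyte markers in water replicates 2 (7.45) and 3 (7.21).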

How the data were processed

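The 6 tumors, 1 array each, were analysed from the deposited table of 34760 probe sets. Its values are log2 signals made by the authors with RMA, per the submitters' processing notes (affy and limma are listed there too, with no version). The genome build is not given in the sources used here. RMA brings the arrays toward a common distribution, so differences are relative to the rest of each array. The array medians of the deposited values still ran from 6.38 to 6.44. Probe sets naming exactly 1 gene (21640) were named through the platform annotation, and the one with the highest mean stood for its gene. TKI258 was compared with water by limma 3.58.1 in R 4.3.3 (lmFit and eBayes, group only, two-sided, no filter), with Benjamini-Hochberg adjustment over all probe sets and a threshold of 0.05. The fit was tested on simulated data. The members, the lists of other genes and the rule for naming genes were chosen with earlier results of these data known. Values of every tumor were planned for the 12 members with the smallest p, for 12 members chosen by role and for the 3 with the largest range; Cd163 and Irf8 were added after their values were seen. From other lists at most 4 genes with the smallest p are named. The low-signal filter asked for signals above 6.404, the median of all values, on at least 3 arrays. Alternatives were other scalings, filters, variance priors, array weights, a replicate block and each tumor left out. The number of arrays limits the precision.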

Additional observations from a re-analysis of the deposited data

How the results depend on the processing

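Under all alternatives 0 members passed limma's adjusted test (main setting: 3 at an unadjusted limma p under 0.05), the median member difference stayed below 0 (-0.28 to -0.08) and 27 to 36 of 41 members had a lower TKI258 mean (32 of 38 with the low-signal filter). The number of probe sets past the threshold was 0 to 3 as each tumor was left out (3 without water replicate 1) and 1 without both TKI258 replicate 3 and water replicate 1, a setting chosen after seeing the data. Members wholly below the water range in TKI258 tumors, 4 with all tumors, numbered 5 to 14 as each tumor was left out. Over all genes 9.59% to 11.3% did so. Without that pair 19 members did, beside 16.1% of all genes. Fewer tumors separate more easily. The direction held for 25 members and turned for 16 in at least 1 setting. With each tumor left out, the turned differences ran from -0.09 to 0.27 for Gas6, -1.01 to 0.58 for Timd4, -0.26 to 0.32 for Stab1, -0.12 to 0.12 for Apoe, -0.17 to 0.02 for Lyz2, -0.29 to 0.05 for Laptm5, -0.41 to 0.16 for Folr2, -0.68 to 0.05 for Mrc1, -0.12 to 0.41 for Marco, -0.25 to 0.00 for Tlr4, -0.33 to 0.14 for Clec4d, -0.35 to 0.23 for Trem1, -0.03 to 0.34 for Arg1, -0.05 to 0.77 for Nos2, -0.68 to 0.89 for Retnla and -0.50 to 0.12 for Irf8. Quantile normalization turned Timd4 (0.01) and Stab1 (0.03), and median centring turned Apoe (-0.01). Array weights turned Stab1 (0.18), Folr2 (0.12), Marco (-0.03), Clec4d (0.19) and Trem1 (0.17). Leaving out the pair gave -0.30 for Laptm5, 0.38 for Arg1 and -0.51 for Irf8, with their direction kept, and turned Gas6 (-0.03), Stab1 (0.04), Apoe (-0.04), Marco (-0.02), Trem1 (0.06), Nos2 (-0.20) and Retnla (0.37). The cause of these turns was not tested. The labels do not say whether equal replicate numbers pair tumors. Deviations of same-numbered tumors from their group means correlated at -0.232, 0.186 and 0.00897. Those of differently numbered tumors correlated at -0.279 to 0.309. These correlations cannot show whether tumors were handled in pairs. With the replicate number as a block 0 probe sets passed. In that fit 6 members had an unadjusted limma p under 0.05, beside 6.03% of all genes.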
